A study of Mus musculus with 16 samples.

Results

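The keratin genes of the mouse were read here for peaks of H3K27me3, the trimethylated form of lysine 27 of histone H3, in mouse breast tumour cells. They were taken as the RefSeq protein-coding genes of the mm10 build whose symbol is Krt followed by a number and at most 1 letter, without the keratin-associated Krtap genes. This rule gave 53 of the 21631 protein-coding genes of the autosomes and chromosome X, with 26 on chromosome 15 and 27 on chromosome 11. All libraries came from CCN6KOT cells, which derive from a breast tumour of a CCN6 knockout mouse and are labelled as spindle metaplastic. For the 4 dnTCF4 libraries a lentivirus brought in dnTCF4, which is a TCF4 made dominant negative, TCF4 being a factor through which beta-catenin acts on its target genes. The 4 control libraries came from cells that received a control lentivirus, with PPGS in their names, although the series text speaks of parental cells. The cells of both groups therefore shared the loss of CCN6, a lentiviral transduction and selection with puromycin. The labels call the cells both primary cells and a cell line, give no mouse strain or age, and leave unsaid whether each numbered library had its own culture. The p-values therefore reflect library-to-library spread alone, and that spread may be technical. In these bulk samples, fewer cells with the mark and less of the mark per cell cannot be told apart. The question put to these libraries was how blocking beta-catenin signalling bears on the mark that EZH2 writes.

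Keratins are the intermediate filament proteins of epithelia. Each filament pairs a type I with a type II keratin, and the genes lie in a pair of clusters, the type I genes on chromosome 11 and the type II genes together with the type I gene Krt18 on chromosome 15. Simple epithelia, such as the luminal layer of the mammary gland, carry mainly Krt8, Krt18, Krt7 and Krt19. Basal cells, including mammary myoepithelium, carry Krt5 and Krt14, and other members are used in the upper layers of stratified epithelia, in the root sheaths of the hair follicle and in the hair shaft. H3K27me3 is laid down by Polycomb repressive complex 2, whose catalytic subunit is EZH2, and is known for broad domains over genes that are kept silent. A peak list does not measure expression, and a gene with no peak is not thereby shown to lack the mark.

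The lists held 21492, 191, 4885 and 1838 peaks in dnTCF4 libraries 1 to 4, against 426, 738, 54070 and 22745 peaks in control libraries 1 to 4. Sequencing depth is unknown because peak lists hold no read counts, so the counts over all keratins are set beside the share of all protein-coding genes that the same list reaches. A gene was counted as having a peak when a peak overlapped its body, extended by 2 kb to each side, by at least 1 base. The 8 IgG libraries were not analysed here. Of 6 epithelial marker genes 3 had a peak, namely the adhesion genes Epcam in all 8 libraries and Cdh1 in 3, and the tight junction gene Cldn7 in 2, while Cldn4, Krt8 and Krt18 had none. None of the 6 mesenchymal marker genes (Vim, Zeb1, Snai1, Twist1, Fn1 and Cdh2) had a peak in any library. Over all protein-coding genes 21.4% had a peak in at least 1 library, and these small sets of markers were not tested against each other.

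Keratin genes carried peaks in every library, and more often than protein-coding genes at large. In the dnTCF4 libraries 31, 2, 16 and 10 of the 53 keratin genes had a peak, where 13.7%, 0.254%, 5.13% and 2.41% of all protein-coding genes did. In the control libraries the counts were 5, 8, 36 and 31, where 0.675%, 1.06%, 20.1% and 12.5% of all genes had a peak. As shares of the 53 genes these were 58.5%, 3.77%, 30.2% and 18.9% in dnTCF4 and 9.43%, 15.1%, 67.9% and 58.5% in control libraries. The keratin share was above that of all genes in 8 of 8 libraries, although keratin genes are short, with a median extended length of 11.1 kb against 21.3 kb for all genes. Peaks covered 10.5%, 0.0796%, 2.98% and 0.573% of the extended keratin genes in the dnTCF4 libraries and 0.364%, 0.367%, 20.6% and 10.2% in the control libraries. Over all protein-coding genes the highest such coverage was 0.653% in dnTCF4 1 and 1.88% in control 3.

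Over the 8 libraries, 39 keratin genes had a peak in at least 1 library, a share of 73.6% where all protein-coding genes gave 21.4%. At least 5 libraries had a peak at 9 keratin genes (2.31% of all genes reached that number), and at least 7 libraries at 4 (0.393% of all genes). These 4 were Krt77, Krt73, Krt72 and Krt28. In both groups, with at least 1 library each, 31 keratins had a peak, as did 12.9% of all genes. At the other end, 14 keratin genes had no peak in any library. Neighbouring genes share sequence at their edges, with 6 pairs of overlapping extended genes, but only 6 of the 312 keratin peaks in the 8 lists were counted for more than 1 gene.

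**Figure D1:**
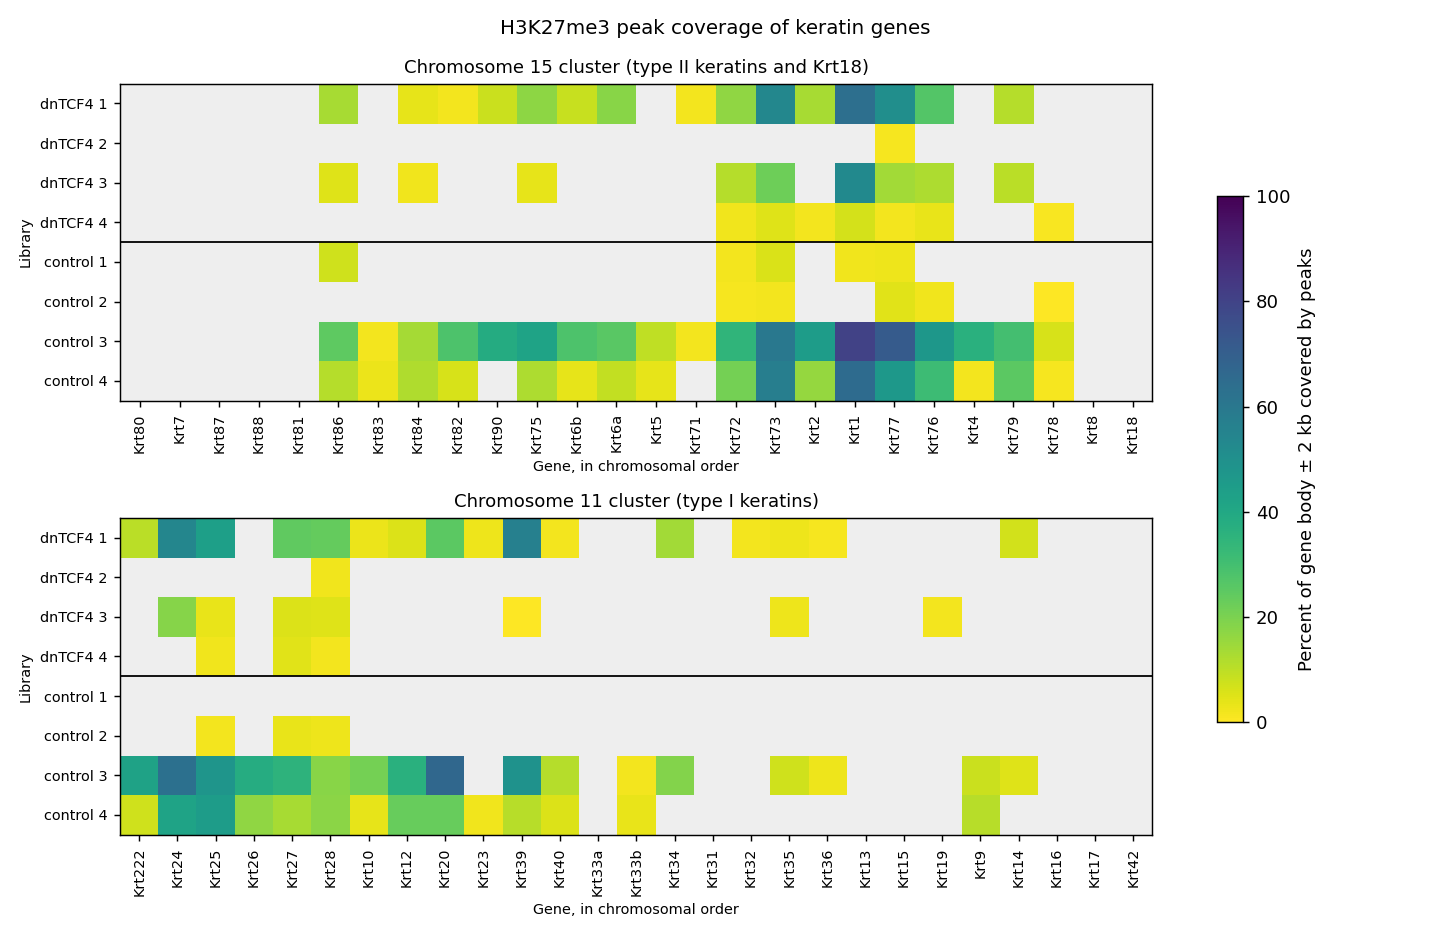
Percent of each keratin gene (body and 2 kb to each side) covered by H3K27me3 peaks, with genes in chromosomal order on the x axis, dnTCF4 libraries above control libraries, and grey for no peak. Colour runs along stretches of neighbouring genes: Krt80 to Krt81 and Krt8 to Krt18 at the ends of the chromosome 15 cluster are grey in all 8 libraries. In dnTCF4 1, control 3 and control 4 the left side of the chromosome 11 cluster is filled where the right side is mostly grey. In the other libraries the left side is mostly or wholly grey too.

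Simple keratins had peaks in the fewest libraries of the classes, with a median of 0, and 2 of 5 genes had a peak in any library. Their mean covered percent was not the lowest, at 5.06% in dnTCF4 1, 13.3% in control 3 and 4.69% in control 4, where basal keratins had 2.31%, 4.78% and 1.18%, and all of that coverage lay at Krt20. Krt8 and Krt18, which form the filament pair of simple epithelia, and Krt7, a luminal and ductal keratin, had no peak in any of the 8 libraries, also with genes extended by 5 kb. The peak nearest to Krt8 in any list lay 32.5 kb away and the one nearest to Krt18 64.0 kb away, both in control 3, the longest list. For Krt7 that distance was 47.4 kb, again in control 3. Krt19, a luminal and progenitor keratin on chromosome 11, had a single peak covering 159 bases in dnTCF4 3 and none in the control libraries. Krt20, a keratin of intestinal and urothelial epithelium, was the exception within the class. Peaks covered 3482 bases of extended Krt20 in dnTCF4 1 and none in the other dnTCF4 libraries, against 9175 bases in control 3, 3226 bases in control 4 and none in the other control libraries. Among the simple keratins, therefore, only Krt20 had peaks in more than 1 library, and only in the longest lists of both groups.

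The basal keratins were marked thinly. Krt5, the type II keratin of basal cells, had no covered base in the dnTCF4 libraries, against 947 bases in control 3 and 349 bases in control 4. Its partner Krt14 had 578 covered bases in dnTCF4 1 alone of the dnTCF4 libraries, against 394 bases in control 3 alone of the control libraries. Krt15, a keratin of basal and hair follicle stem cells, had no peak, and the nearest peak in any list lay 11.4 kb away. The keratins that appear in wounded or activated epidermis split by chromosome. Krt6a had 1498 covered bases in dnTCF4 1, against 2153 in control 3 and 781 in control 4, and Krt6b had 707 in dnTCF4 1, against 2320 in control 3 and 295 in control 4. Their type I partners Krt16 and Krt17 had none, with the nearest peaks at 5.20 kb and 15.3 kb. Krt6a and Krt6b are close copies of each other, and how reads that fit both were treated is not given in the sources used here. Together the simple, basal and wound classes had a peak at 6 of 12 genes (50%), with 21.4% of all protein-coding genes having a peak in any library.

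Suprabasal and mucosal keratins, those of the upper layers of skin, mouth and cornea, were marked at 10 of 11 genes, again with 21.4% over all genes. Krt77, an epidermal type II keratin, was the single keratin gene with a peak in all 8 libraries. Its covered bases were 7584, 219, 2084 and 264 in dnTCF4 libraries 1 to 4, against 397, 646, 10669 and 6985 in control libraries 1 to 4. The order follows the length of the lists in each group, and the groups overlapped. Krt1, the type II keratin of differentiating epidermis, had 5952, 0, 4918 and 606 covered bases in the dnTCF4 libraries, against 199, 0, 7504 and 6074 in the control libraries. In control 3 Krt1 lay under the widest peak at any keratin gene, of 17452 bases. Krt76, a keratin of the oral mucosa, had 3375, 0, 1568 and 396 covered bases in the dnTCF4 libraries, against 0, 262, 5915 and 3960 in the control libraries. Krt13, a mucosal keratin on chromosome 11, was the unmarked member of the class.

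Root sheath and companion layer keratins, which shape the hair follicle around the growing hair, had the highest median of the classes, with peaks in 6 of 8 libraries. A peak was present at all 8 members, where 21.4% of all protein-coding genes had one and their median was 0 libraries. Krt73 had 7012, 0, 2905 and 621 covered bases in the dnTCF4 libraries, against 764, 255, 7821 and 7454 in the control libraries. Krt72 had 2357, 0, 1608 and 309 in the dnTCF4 libraries, against 278, 190, 4968 and 2992 in the control libraries. The neighbouring genes Krt73 and Krt72 on chromosome 15 were thus covered in the same 7 libraries, all but dnTCF4 2. On chromosome 11, Krt28 had 3272, 306, 684 and 224 covered bases in the dnTCF4 libraries, against 0, 356, 2493 and 2397 in the control libraries. Krt25 and Krt27 each had peaks in 3 dnTCF4 and 3 control libraries. Krt28 was the only member with a peak in all 4 dnTCF4 libraries, and control 1 held no peak at any chromosome 11 keratin.

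Hair keratins, the cysteine-rich keratins of the hair shaft, had peaks at 11 of 15 genes (73.3%, with 21.4% over all genes) but in few libraries each, with a median of 2 libraries. Only Krt86 reached 5 libraries. It had 1367, 0, 518 and 0 covered bases in the dnTCF4 libraries, against 762, 0, 2602 and 1164 in the control libraries. Krt31, Krt33a, Krt81 and Krt87 had no peak. Several hair keratins are close copies of their neighbours, among them Krt31, Krt33a, Krt33b and Krt34, and Krt81, Krt83 and Krt86, so their assignment of reads, and with it a missing peak, is uncertain. On chromosome 15, 4 of 6 hair keratins had a peak, and on chromosome 11, 7 of 9. By library, for which the shares of all genes are those given above, 9, 0, 4 and 0 of the 15 hair keratins had a peak in the dnTCF4 libraries, against 1, 0, 10 and 7 in the control libraries. For the 8 root sheath and companion keratins these counts were 7, 1, 6 and 5 in the dnTCF4 libraries, against 2, 5, 8 and 7 in the control libraries. For the 12 simple, basal and wound keratins they were 4, 0, 1 and 0 in the dnTCF4 libraries, against 0, 0, 5 and 4 in the control libraries. The 3 groups of keratins were not tested against each other, because many genes of a class lie side by side and share peaks and chromosomal surroundings.

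**Figure D2:**
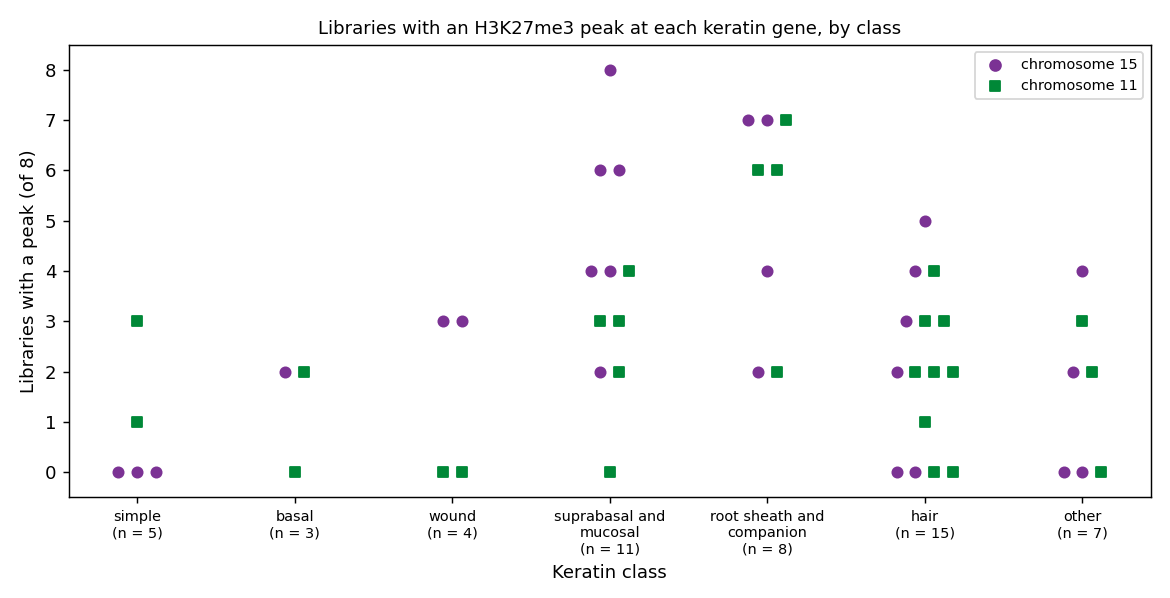
Number of the 8 H3K27me3 libraries with a peak at each keratin gene, by class, with circles for chromosome 15 and squares for chromosome 11. Root sheath and companion keratins have a median of 6 libraries, suprabasal and mucosal keratins 4, hair keratins 2 and simple keratins 0.

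Both clusters carried peaks, with the chromosome 15 cluster higher in most libraries. The chromosome 15 cluster runs from 101348315 to 102032026 and the chromosome 11 cluster from 99232761 to 100269951 (mm10). In the dnTCF4 libraries 15, 1, 9 and 7 of 26 chromosome 15 keratins had a peak, against 16, 1, 7 and 3 of 27 chromosome 11 keratins. In the control libraries 5, 5, 19 and 17 chromosome 15 keratins did, against 0, 3, 17 and 14 chromosome 11 keratins. The share on chromosome 15 was higher in 7 of 8 libraries, the exception being dnTCF4 1, and the difference averaged 9.26 ± 7.2 percentage points (SD, n = 8 libraries). With lists of equal length, the 191 peaks of highest significance in each library, the difference turned to -0.84 percentage points. It was 3.92 points when only 2 kb to each side of both gene ends were read, and 4.79 points with peaks of −log10 q of at least 2. Peaks covered 16.0%, 0.0900%, 5.73% and 1.41% of the chromosome 15 cluster in the dnTCF4 libraries, against 9.24%, 0.0294%, 1.07% and 0.164% of the chromosome 11 cluster. In the control libraries they covered 0.505%, 0.771%, 29.6% and 17.6% of the chromosome 15 cluster, against 0.0219%, 0.101%, 21.1% and 8.58% of the chromosome 11 cluster.

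Chromosome 15 was richer in peaks outside its keratins too. Among its other 750 genes, 26.5%, 1.73%, 17.9% and 10.8% had a peak in the dnTCF4 libraries and 5.20%, 5.47%, 29.7% and 25.1% in the control libraries. Among the other 1582 genes of chromosome 11 these shares were 14.7%, 0.190%, 4.99% and 2.09% in the dnTCF4 libraries and 0.822%, 1.01%, 19.3% and 11.9% in the control libraries. The other genes were higher on chromosome 15 in 8 of 8 libraries, and the part of the whole chromosome in the difference between the keratin clusters was not tested. Against their own chromosome, keratins had the higher share in 8 of 8 libraries on chromosome 15 and in 7 of 8 on chromosome 11, where control 1 had none.

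**Figure D3:**
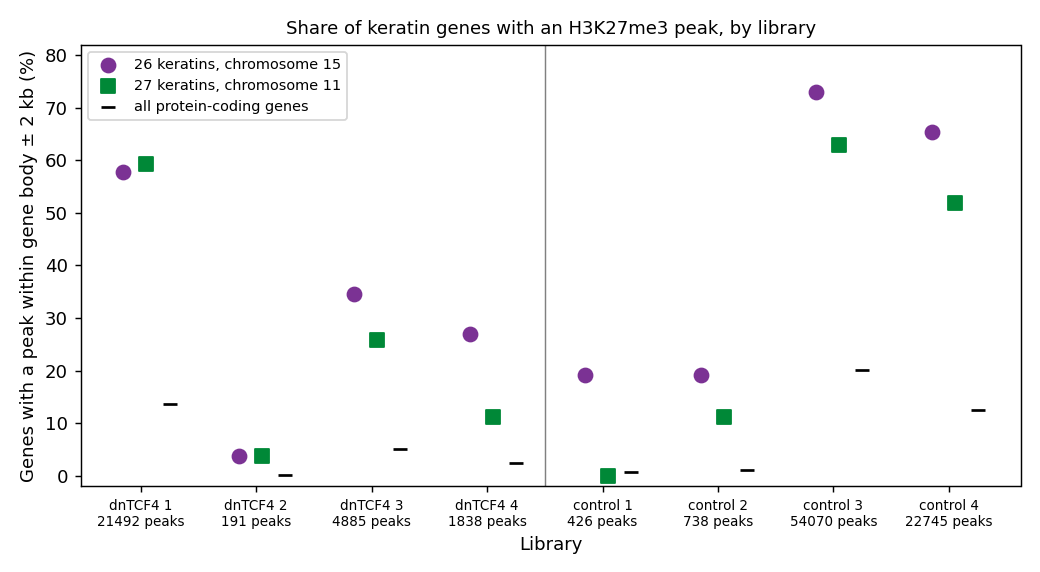
Share of keratin genes with an H3K27me3 peak in each library, for the 26 genes on chromosome 15 (circles) and the 27 on chromosome 11 (squares), with the share of all 21631 protein-coding genes as a dash and the number of peaks in each list under its name. Keratin symbols lie above the dash in every library except for chromosome 11 in control 1, which had 0 of 27.

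Within each cluster the peaks followed position. On chromosome 11 the Krtap genes divide the keratins into 12 genes from Krt222 to Krt40 and 15 genes from Krt33a to Krt42. All 12 from Krt222 to Krt40 had a peak in at least 2 libraries, with a median of 3. Of the 15 beyond the Krtap genes 8 had a peak, with a median of 1. Over all protein-coding genes 21.4% had a peak in any library, with a median of 0. By library, 11, 1, 5 and 3 of the 12 genes had a peak in the dnTCF4 libraries, against 0, 3, 11 and 12 in the control libraries. Peaks covered 22.9%, 0.0986%, 3.16% and 0.550% of the stretch from Krt222 to Krt40 in the dnTCF4 libraries and 0.0734%, 0.278%, 43.6% and 19.6% in the control libraries. They covered 1.52%, 0, 0.287% and 0 of the stretch from Krt33a to Krt42 in the dnTCF4 libraries and 0, 0, 5.75% and 1.98% in the control libraries. The Krtap stretch between them was covered to 4.49% in dnTCF4 1, 14.7% in control 3 and 4.98% in control 4. Hair keratins lie on both sides: Krt39 and Krt40 in the covered stretch had peaks in 4 and 3 libraries, and the 7 from Krt33a to Krt36 in 0 to 3.

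On chromosome 15 a bare stretch stood at each end of a covered one. The 5 genes from Krt80 to Krt81 had no peak in any library over 115 kb, and neither had Krt8 and Krt18 over 35.3 kb. The 6 genes from Krt72 to Krt76 formed the densest stretch, from 101776172 to 101892920, and each had a peak in 4 to 8 libraries. Peaks covered 39.7%, 0.530%, 19% and 4.64% of this stretch in the dnTCF4 libraries and 1.5%, 3.15%, 56.7% and 40.4% in the control libraries. The 10 genes from Krt86 to Krt71, among them Krt5, Krt6a and Krt6b, had a median of 3 libraries, where all protein-coding genes had 0. The division of chromosome 15 into stretches was chosen after the values were seen. Beyond the cluster edges, Nr4a1, Atg101 and Smim41 before Krt80 and Eif4b, Tns2 and Spryd3 after Krt18 had no peak in any library. On chromosome 11, Smarce1, Tns4, Eif1 and Gast had none, while Ccr7 and Hap1 each had a peak in 1 dnTCF4 and 2 control libraries.

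**Figure D4:**
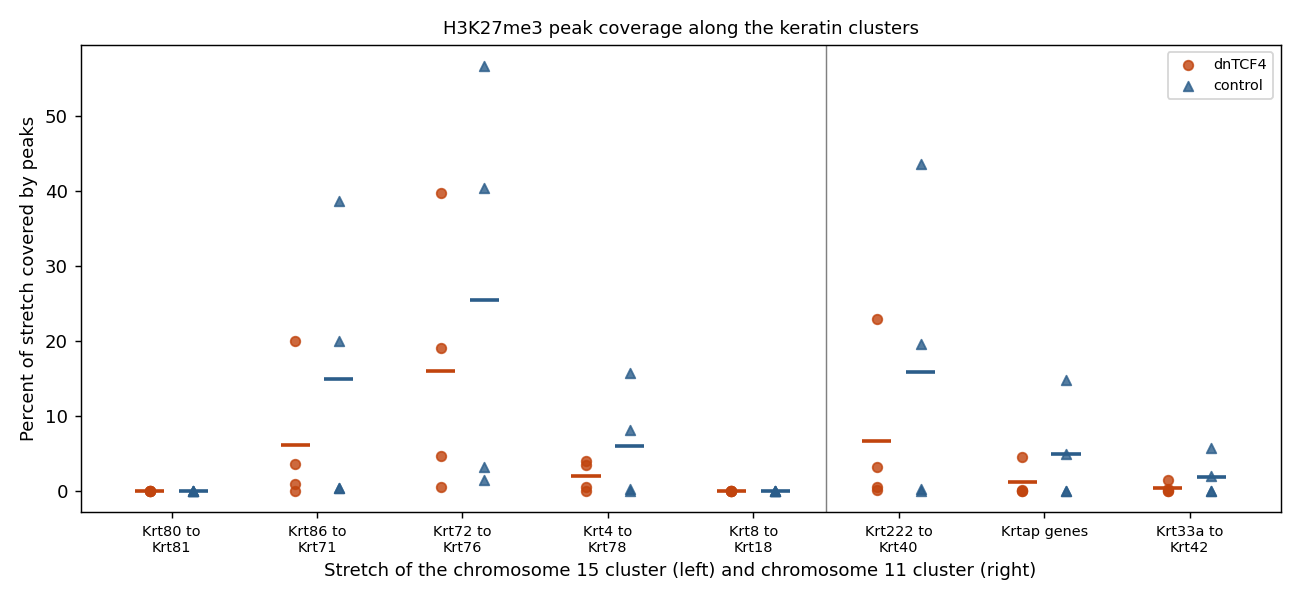
Percent of each stretch of the keratin clusters covered by H3K27me3 peaks, with dnTCF4 libraries as circles, control libraries as triangles and group means as bars (n = 4 each). The stretch from Krt72 to Krt76 is covered most, up to 39.7% in dnTCF4 1 and 56.7% in control 3, and the stretches Krt80 to Krt81 and Krt8 to Krt18 lie at 0 in every library.

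No keratin gene passed a test between dnTCF4 and control libraries. The share of keratin genes with a peak averaged 27.8 ± 23.1% in dnTCF4 and 37.7 ± 29.8% in control libraries (SD, n = 4 each), a difference of -9.91 percentage points that is smaller than either SD. Over all protein-coding genes the shares averaged 5.37 ± 5.90% in dnTCF4 and 8.57 ± 9.42% in control libraries (SD, n = 4 each). The keratin difference was 0.157 percentage points without control 3 and 0.943 with lists of equal length, but -20.1 without dnTCF4 1, -19.3 without control 1 and -27.4 among libraries with at least 1000 peaks (3 dnTCF4 and 2 control). Fisher's exact test on the number of libraries with a peak, two-sided and adjusted over 21631 genes, called 0 keratins and 0% of all genes, and at an unadjusted p under 0.05 it also called 0 of both. The lowest Fisher p at a keratin was 0.429, and this exact test cannot go below 0.029 with 4 libraries a group, a value that 12361 genes would have to reach for any to pass the adjustment. As only 4626 genes had a peak, no gene could pass it. The exact permutation test of the covered percent, run on the 4626 genes with a peak, called 0 keratins and 0% of these genes after adjustment. At an unadjusted p under 0.05 it gave 1 gene (0.0216%), which was no keratin, and the lowest p at a keratin was 0.257 (Krt78). Covered percents of dnTCF4 and control libraries overlapped at every keratin gene, and over all 4626 genes they did not overlap at 0.0216%.

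The counts of libraries leaned towards the control group, as did those of other genes. More control than dnTCF4 libraries had a peak at 18 keratins, more dnTCF4 libraries at 4, and equal numbers at 17 of the 39. Among all protein-coding genes with a peak these counts were 2865, 537 and 1224. A peak in at least 2 control and 0 dnTCF4 libraries was found at 6 keratins, where 2% of all genes met that rule. Among genes with any peak it was met by 6 of 39 keratins and by 433 of 4626 protein-coding genes. The 6 keratins were Krt26, a root sheath keratin, the hair keratins Krt33b and Krt83, Krt9, a keratin of palm and sole skin, the basal Krt5 and the mucosal Krt4, and at each of them the peaks were those of control 3 and control 4. Krt4 stands outside the naming rule and was named after its values were seen. Covered bases at Krt26 were 0 in every dnTCF4 library, against 5110 in control 3, 2220 in control 4 and 0 in the other control libraries. This count was 0 without control 3 or without control 4, and 14 without dnTCF4 1. The opposite pattern, at least 2 dnTCF4 and 0 control libraries, was found at 0 keratins and 0.0601% of all genes.

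The lists of dnTCF4 1 and control 4 are of similar length, and each had a peak at 31 keratin genes. Of these 24 were the same genes, 77.4% of each set. Over all protein-coding genes, 13.7% had a peak in dnTCF4 1 and 12.5% in control 4. The overlap of the lists over all genes was not counted, so whether 77.4% is particular to keratins was not tested. The 7 peaked in dnTCF4 1 but not in control 4 were Krt34, Krt32, Krt35, Krt36, Krt14, Krt90 and Krt71. The 7 peaked in control 4 but not in dnTCF4 1 were Krt26, Krt33b, Krt9, Krt83, Krt5, Krt4 and Krt78. With 1 library on each side this comparison has no replicate check.

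A pair of narrow sites, in Krt28 and in Krt77, carried the most significant keratin peak of every list. In Krt28 the same bases, 99365780 to 99366003 on chromosome 11, lay under a peak in 7 libraries, all but control 1. They lie inside the gene, 9.01 kb downstream of its annotated start. The authors' deposited fold enrichment of this peak was 5.92, 6.13, 4.41 and 4.16 in dnTCF4 libraries 1 to 4, against 5.61, 5.29 and 3.92 in control libraries 2 to 4. It ranked 10 of 191 peaks by significance in dnTCF4 2, 26 of 21492 in dnTCF4 1 and 20 of 54070 in control 3. In Krt77 the bases 101861457 to 101861675 on chromosome 15, inside the gene and 8.14 kb downstream of its start, lay under a peak in 7 libraries, all but control 2. There the authors' fold enrichment was 3.38, 5.66, 5.08 and 5.64 in the dnTCF4 libraries, against 5.79, 3.51 and 3.29 in control libraries 1, 3 and 4. The Krt28 site was the top keratin peak in 5 lists (dnTCF4 1, dnTCF4 2, control 2, control 3 and control 4) and the Krt77 site in 3 (dnTCF4 3, dnTCF4 4 and control 1). With lists of equal length, 4 keratin genes had a peak: Krt28 in 3 dnTCF4 and 3 control libraries, Krt77 in 3 dnTCF4 and 1 control library, Krt24 in 1 dnTCF4 and Krt73 in 1 control library. The share of all protein-coding genes with a peak in lists of equal length was not counted, so the keratin count has no background there.

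Keratin peaks were close to other peaks in height in 7 lists and wider than other peaks in the long lists. Their median fold enrichment, as the authors deposited it, was 3.58 in dnTCF4 1, where other peaks had 3.5, and 3.11 in control 3, where other peaks had 3.01. The exception was dnTCF4 2, the shortest list, with a median of 5.90 over its 2 keratin peaks and 4.71 over other peaks. Median widths were 971 bases in dnTCF4 1, against 485 bases for other peaks of that list, and 1082 bases in control 3, against 595 bases. In Krt73 the bases shared by 7 libraries, 101803740 to 101803994, lay upstream of the gene, 1.51 kb before its start. They belonged to a peak of 5399 bases in dnTCF4 1, 1104 bases in dnTCF4 3 and 621 bases in dnTCF4 4, against 764, 255, 5760 and 6929 bases in control libraries 1 to 4.

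Promoter sequence is shown for 6 keratins that span the range from peaks in all libraries to none, because CpG-rich promoters are the usual sites of Polycomb recruitment in mammals. Each line gives the 250 bases before the start that RefSeq annotates, on the gene's strand, from GRCm38.p6, with CpG dinucleotides in capitals. Krt77 (chr15:101869706-101869955, minus strand) had peaks in 8 libraries, Krt73 (chr15:101802361-101802610, minus strand) and Krt28 (chr11:99374904-99375153, minus strand) in 7, Krt5 (chr15:101712906-101713155, minus strand) in 2, and Krt8 (chr15:102004343-102004592, minus strand) and Krt18 (chr15:102027966-102028215, plus strand) in 0.
Krt77: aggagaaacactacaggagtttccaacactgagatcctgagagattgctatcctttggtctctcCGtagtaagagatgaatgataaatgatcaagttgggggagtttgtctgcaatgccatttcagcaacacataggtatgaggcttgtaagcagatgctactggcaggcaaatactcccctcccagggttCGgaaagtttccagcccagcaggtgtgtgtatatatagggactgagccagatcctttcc
Krt73: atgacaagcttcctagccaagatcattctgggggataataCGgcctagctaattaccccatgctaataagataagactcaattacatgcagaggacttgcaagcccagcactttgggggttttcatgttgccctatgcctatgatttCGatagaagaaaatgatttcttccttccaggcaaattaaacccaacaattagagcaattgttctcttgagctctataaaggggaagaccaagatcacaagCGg
Krt28: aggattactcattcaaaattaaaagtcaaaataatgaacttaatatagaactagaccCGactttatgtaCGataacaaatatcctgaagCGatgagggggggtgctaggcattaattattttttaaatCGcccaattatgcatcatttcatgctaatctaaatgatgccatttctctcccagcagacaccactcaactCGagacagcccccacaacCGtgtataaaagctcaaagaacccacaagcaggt
Krt5: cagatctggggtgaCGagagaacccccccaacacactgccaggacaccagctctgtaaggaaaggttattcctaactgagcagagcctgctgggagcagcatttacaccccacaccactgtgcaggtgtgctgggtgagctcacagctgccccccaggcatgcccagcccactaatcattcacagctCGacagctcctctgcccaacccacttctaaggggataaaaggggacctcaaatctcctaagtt
Krt8: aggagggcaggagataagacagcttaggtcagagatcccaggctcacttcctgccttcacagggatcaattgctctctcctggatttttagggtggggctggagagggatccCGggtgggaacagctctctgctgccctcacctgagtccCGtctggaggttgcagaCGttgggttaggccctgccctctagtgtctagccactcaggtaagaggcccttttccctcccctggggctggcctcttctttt
Krt18: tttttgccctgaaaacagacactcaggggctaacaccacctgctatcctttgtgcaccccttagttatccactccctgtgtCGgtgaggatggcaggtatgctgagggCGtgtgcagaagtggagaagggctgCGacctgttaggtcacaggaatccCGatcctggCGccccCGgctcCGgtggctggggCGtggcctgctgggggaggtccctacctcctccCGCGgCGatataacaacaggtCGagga
The capitals mark 2 CpG dinucleotides in Krt77, 3 in Krt73, 6 in Krt28, 2 in Krt5, 3 in Krt8 and 12 in Krt18. Low numbers thus occur both at keratins with many peaks and at keratins with few or none, and Krt72, also peaked in 7 libraries and not printed, holds 9.

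Promoter windows of 36 of the 53 keratins were available, as 37 windows. Their 250 bases before the start held a median of 4 CpG dinucleotides, against 10 in the 21045 windows of all protein-coding genes. The 30 windows of keratins with a peak held between 1 and 9, and the most CpG-rich keratin promoters, Krt7 with 16 and Krt18 with 12, belonged to genes without a peak. Among the 6 keratins with a window and no peak the others held few, such as Krt8 with 3, and the median of their 7 windows was 3. Most peaked keratins had no peak on the start itself, which is a short stretch of the extended gene. Of the 30 peaked keratins with a window, 8 had a peak on the window from 250 bases before to 50 bases after the start, and 22 had peaks elsewhere in the extended gene only. The 8 are 21.6% of the 37 keratin windows, where 1.95% of all windows had a peak in any library. That window carried a peak in 4 libraries at Krt77, in 3 at Krt73 and in 2 at Krt28. In dnTCF4 1, 4 of 37 keratin windows had a peak (10.8%, with 0.718% of all windows), and in control 3, 7 did (18.9%, with 1.67% of all windows).

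**Figure D5:**
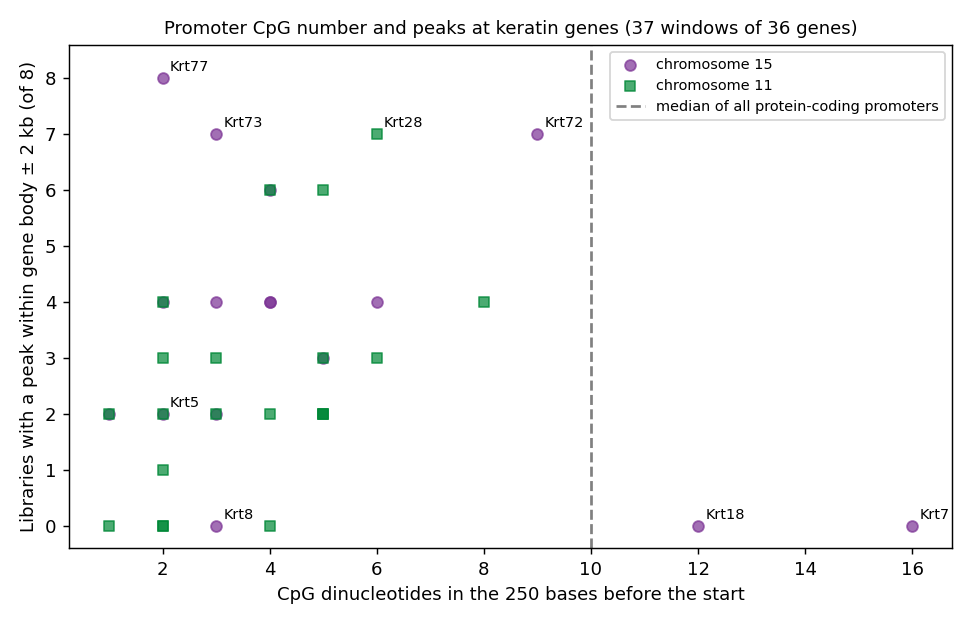
CpG dinucleotides in the 250 bases before the annotated start (x axis) and number of libraries with a peak at the gene (y axis) for 37 promoter windows of 36 keratins, circles for chromosome 15 and squares for chromosome 11. Keratins with a peak hold at most 9 CpG dinucleotides, below the median of 10 for all promoters (dashed line), and Krt7 and Krt18 at the right have no peak.

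The TATA box motif TATAAA, searched on both strands of these 250 bases, occurred in 17 of 37 keratin windows (45.9%), with 11.7% of all windows holding it. The motifs CTTTGAT and CTTTGAA, forms of the site that TCF and LEF factors bind, were searched on both strands. At least 1 of these forms stood in 7 keratin windows (18.9%), with 6.77% of all windows holding it, and in 0 of these keratin windows did such a form overlap a TATAAA. Median GC content was 48% in the keratin windows and 55.6% in all windows, and its part in the motif shares was not tested. By cluster, 2 of 16 windows on chromosome 15 and 5 of 21 on chromosome 11 held such a form. The 5 on chromosome 11 were Krt39, Krt33b, Krt34, Krt31 and Krt32, all hair keratins, and those on chromosome 15 were Krt90 and Krt2. Of these, Krt31, Krt33b and Krt34 are among the close copies named above.

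The genes that work with keratins are given here beside the share of all protein-coding genes with a peak in any library, 21.4%. Of 23 Krtap genes on chromosome 11, which encode the matrix proteins of hair, 12 (52.2%) had a peak in at least 1 library, with 7, 0, 1 and 0 in the dnTCF4 libraries and 0, 0, 10 and 6 in the control libraries. Of 33 Krtap genes on other chromosomes 5 (15.2%) had a peak, below the share of all genes. Of 15 regulators of keratin genes 9 (60%) had a peak. Hoxc13, a factor of hair keratin genes that also lies on chromosome 15, had one in 3 dnTCF4 and 4 control libraries, with 7688, 0, 5499 and 1758 covered bases in the dnTCF4 libraries, against 1422, 875, 7977 and 6676 in the control libraries. The epithelial factors Grhl2 and Ehf had peaks in 3 dnTCF4 and 3 control libraries each. Tfap2c, Ovol1 and Elf5 had peaks in 2 dnTCF4 and 2 control libraries each, and Gata3, Grhl3 and Msx2 in 1 dnTCF4 and 2 control libraries each. Trp63, the factor of basal keratinocytes, Klf4, Klf5, Tfap2a, Foxn1 and Elf3 had none. Of 8 desmosomal plaque and linker genes, which anchor keratin filaments to cell contacts, 2 (25%) had a peak, a share near that of all genes, with Dsp in 1 dnTCF4 and 2 control libraries and Pkp1 in 2 of each. Of 15 other intermediate filament genes 7 (46.7%) had a peak, among them Prph and Nefh of neurons, each in 3 dnTCF4 and 2 control libraries. By Fisher's exact test each of these genes had an adjusted p of 1, but no gene could pass that adjustment with these libraries. It therefore does not show that the groups are alike at these genes.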

How the data were processed

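H3K27me3 was profiled by ChIPmentation in 4 dnTCF4 and 4 control libraries. The submitters' processing notes name MACS2 2.1.2, Bowtie2 2.3.4.1, the mm10 build, bedtools 2.28.0, SAMtools 1.2, Picard 2.20.2, cutadapt and Trim Galore. Their options, and whether IgG served MACS2 as control, were not stated there. The deposited files are 1 peak list per library, without header. Their fold enrichment is the authors' ratio over background for each peak, and their −log10 p and −log10 q are the deposited p-values and q-values of each peak. They were used only to describe or rank peaks within a list, apart from the filter below. All deposited peaks entered, the lowest −log10 q being 1.01.

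Genes came from RefSeq GRCm38.p6 and all 53 keratins matched. Krt74 is annotated as a pseudogene and was left out. Krt85, also on the planned list of hair keratins, was not among the 53 genes found, so the hair class lacks it. Covered bases were counted in each gene body extended by 2 kb. Fisher's exact test over all 21631 genes, and an exact permutation test over 70 assignments on the 4626 genes with any peak, compared the groups. Both were two-sided with Benjamini-Hochberg adjustment. Both were also run on simulated data, which does not show that a gene could pass the adjustment here. With 4 libraries a group the smallest possible p is 0.029. For any gene to pass, 12361 genes would have to reach it in Fisher's exact test and 2644 in the permutation test. The tools were Python 3.11.15, numpy 2.4.6, pandas 2.3.3, SciPy 1.17.1 and matplotlib 3.10.9. Alternatives were other windows, −log10 q of at least 2, at least 500 covered bases, lists of equal length, libraries with at least 1000 peaks, each library left out, and a replicate block. The members and lists were chosen with earlier results of these data known. Genes were named when simple, basal or wound keratins, when peaked in at least 5 libraries (up to 10), or when the groups differed by at least 2 libraries (up to 5 in each direction), along with cluster neighbours and related genes peaked in at least 3 libraries. Others named were chosen after their values were seen. Sequences came from RefSeq GRCm38.p6.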

Additional observations from a re-analysis of the deposited data

Results flagged for a closer look

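In dnTCF4 1 the coverage of the chromosome 11 cluster stood far above the other 3 dnTCF4 libraries. Peaks covered 9.24% of the cluster there, and the next dnTCF4 library had 1.07%. The same held for the stretch from Krt222 to Krt40 (22.9%, next 3.16%), the hair keratins from Krt33a to Krt36 (2.32%, next 0.222%) and the Krtap stretch (4.49%, next 0.115%). In each case the gap to the nearest library exceeded Dixon's critical value for 4 samples. Of 34 groups of 4 values looked at, 4 were picked out, all of them for dnTCF4 1. These 4 are not independent, because the cluster contains the other stretches. Some of the 34 groups held only 0 and could not be picked out, so the count was not set against a chance rate. The list of dnTCF4 1 holds 21492 peaks and the next longest dnTCF4 list 4885, and the part of list length in these values was not tested.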

How the results depend on the processing

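The tests across all genes gave 0 calls in every alternative run, 16 for Fisher's exact test and 15 for the permutation of covered percent, with lowest adjusted p of 1 and 0.395. In the comparison of all libraries Fisher's exact test could make no call. For that 12361 genes would have to reach its smallest p, and only 4626 had a peak. Leaving out a library, narrower gene windows, stricter peak filters and lists of equal length neither lower this smallest p nor add peaked genes. Fisher's exact test could therefore make no call in those runs either, and its 0 calls there show nothing about the groups. With the wider gene windows the genes with a peak were not counted, so whether a call was possible is unknown. With a replicate block, permuting labels only within pairs of the same number, both gave 0 calls, but its smallest possible p is 0.125, so no call could be made. Nor could one be made among libraries with at least 1000 peaks (smallest p 0.1), and in the comparison of all libraries 2644 of 4626 genes would have to reach the smallest permutation p. Deviations from the group means correlated at -0.690, 0.700, -0.0281 and -0.486 for numbers 1 to 4, and no library correlated best with its own number. Whether libraries of the same number shared a culture or batch cannot be told from these values.

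The difference in the share of keratins with a peak, -9.91 percentage points for dnTCF4 minus control, ran from -20.1 to 0.157 when 1 library was left out, the positive value being that without control 3, was 0.943 with lists of equal length and was -27.4 among libraries with at least 1000 peaks. Chromosome 15 minus chromosome 11, 9.26 percentage points, ran from 7.83 to 10.8 when 1 library was left out was 3.92 with only the gene ends, 4.79 with a −log10 q of at least 2 and -0.837 with lists of equal length. Keratins with a peak in at least 1 library numbered 38 to 39 when 1 library was left out and 4 with lists of equal length, which hold 191 peaks each. The shares of all protein-coding genes under these settings were not counted. The 6 keratins peaked in at least 2 control and 0 dnTCF4 libraries became 0 to 14 when 1 library was left out, 3 with genes extended by 5 kb, 2 with a −log10 q of at least 2 and 0 with lists of equal length. The causes of the other changes were not tested. For 12 of 25 named keratins the difference in the share of libraries with a peak was 0, which cannot change sign, and 53 of their 180 alternative values moved off 0. Of 195 values for the other 13 keratins, 158 kept their sign, 36 became 0 and 1 changed sign, that of Krt72, at -25 percentage points and at 25 with a −log10 q of at least 2. Alternatives for single genes and for both counts of keratins were chosen after seeing the data. Depth is unknown, so list length limits what each library can show.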
